A study of Acer rubrum with 15 samples.

Results

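miR156 and miR157 are the plant microRNAs that hold shoots in their juvenile phase, and their small-RNA entries were examined here in leaves of the maple Acer rubrum L. 'Autumn Blaze'. Entries were taken from the deposited table of 15 libraries when their type was mature or hairpin and their name began with miR156 or miR157. This gave 30 of the 419 named or predicted microRNA entries, 24 called miR156 and 6 called miR157, of which 14 were mature entries and 16 were hairpin entries. No measured value was used to choose them. Entries were followed by name, and their sequences are not used here.

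In plants, miR156 and its close relative miR157 guide the silencing of SPL genes, which encode the SQUAMOSA PROMOTER BINDING PROTEIN-LIKE transcription factors. In Arabidopsis their level is high in young plants and falls with age. The SPL factors that are then released switch on miR172 and the adult leaf programme, and one of them, SPL9, holds back anthocyanin synthesis. A microRNA is cut from a hairpin precursor, and a name ending in -5p or -3p gives the arm of that hairpin. In miR156 and miR157 the -5p strand is the guide that pairs with SPL transcripts, and the -3p strand is usually the discarded passenger strand.

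The study asked how light and temperature act on leaf colour change, and it crossed 2 light levels with 2 temperature regimes. Leaves of cuttings were taken on day 14 under 100% light at 30 °C by day and 20 °C by night (CC), under 40% light at those temperatures (CL), under 100% light at 15 °C by day and 5 °C by night (LC), and under 40% light at 15 °C and 5 °C (LL). Control was a mix of untreated leaves from day 0, for which the labels give no light level. The cuttings came from an ordinary greenhouse, all of 1 cultivar. Each group held 3 libraries that the labels call biological replicates, but the labels do not say that each is a separate plant, and the p-values cover the spread of these libraries, which may be technical. The control and each regime differ in day as well as in treatment, and those 2 differences cannot be told apart.

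The libraries held 15652847 to 20822592 counted reads, of which 1883421 to 4300496 fell on microRNA entries. Between 16087 and 77004 reads of a library carried a miR156 or miR157 name, which was 0.632% to 3.04% of its microRNA reads. A predicted microRNA, novel_mir73, took 13.4% to 49.5% of the microRNA reads, and the copper-responsive family miR398 took 0.564% to 33.2%. The first LC library stood apart from the others of its group, with 26.2% of its microRNA reads on miR398 against 6.29% and 4.37%, and the main LC results are also given without it. Levels are reads relative to the microRNA total of a library (CPM) after TMM scaling (trimmed mean of M-values), as mean ± SD over n = 3 libraries. An entry or family was called when its Benjamini-Hochberg adjusted p in edgeR's quasi-likelihood test was under 0.05, and log2 changes are given with their standard error (SE). In whole leaves, fewer cells that make a microRNA and less microRNA per cell cannot be told apart. No entry was used as a marker of leaf tissue, and 0 entries of the table carried the name of miR2275, a trigger of phased small RNAs in reproductive tissue.

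A few entries made up most of the signal. Over all libraries miR157a-5p mature held 32.1% of the reads with a miR156 or miR157 name, miR156a-5p mature 19.4%, miR157d-3p hairpin 15.2% and miR156k_2 mature 10.3%. The miR156a hairpin entry followed with 5.02%, miR157d-3p mature with 4.82%, miR157a-5p hairpin with 3.72% and miR157d mature with 1.95%. The entries are groups of names from many species: miR156a-5p pools 155 published names from 36 species, while miR156k_2 pools 3 soybean names and miR157d-3p is a single name from Arabidopsis lyrata. Of the 64 names pooled under miR157a-5p, 54 are themselves called miR156 in their species, as are 13 of the 15 names under miR157d. The split between miR156 and miR157 below is therefore a split between entry names. Low counts kept 8 entries out of the tests (miR156a_2, miR156g_1 and miR156j_1 in both types, and the mature entries of miR156c and miR156k). They held 246 reads in all, or 0.043% of the reads of the 30 entries. The other 22 entries, 9 mature and 13 hairpin, were tested among 283 entries of the table.

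The make-up of these reads set LC apart from the other 4 groups. Names called miR156 held 36.1% to 39.8% of the miR156 and miR157 reads in the Control libraries, 35.0% to 37.3% in CC, 30.7% to 34.3% in CL and 31.6% to 33.1% in LL. In the LC libraries they held 52.7% to 55.5%, so that in LC alone miR156 names outnumbered miR157 names. The miR156a-5p mature entry had a mean share of 28.6% in LC and of 12.4% to 18.0% in the other groups. The miR157d-3p hairpin entry went the other way in share, with a mean of 9.81% in LC, 23.9% in LL and 13.3% to 19.45% in the other groups. A share also depends on the levels of the other entries. The mean level of this entry was 2024 CPM in LC and 1879 CPM in LL, a change that edgeR did not call (adjusted p = 0.80).

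**Figure D1:**
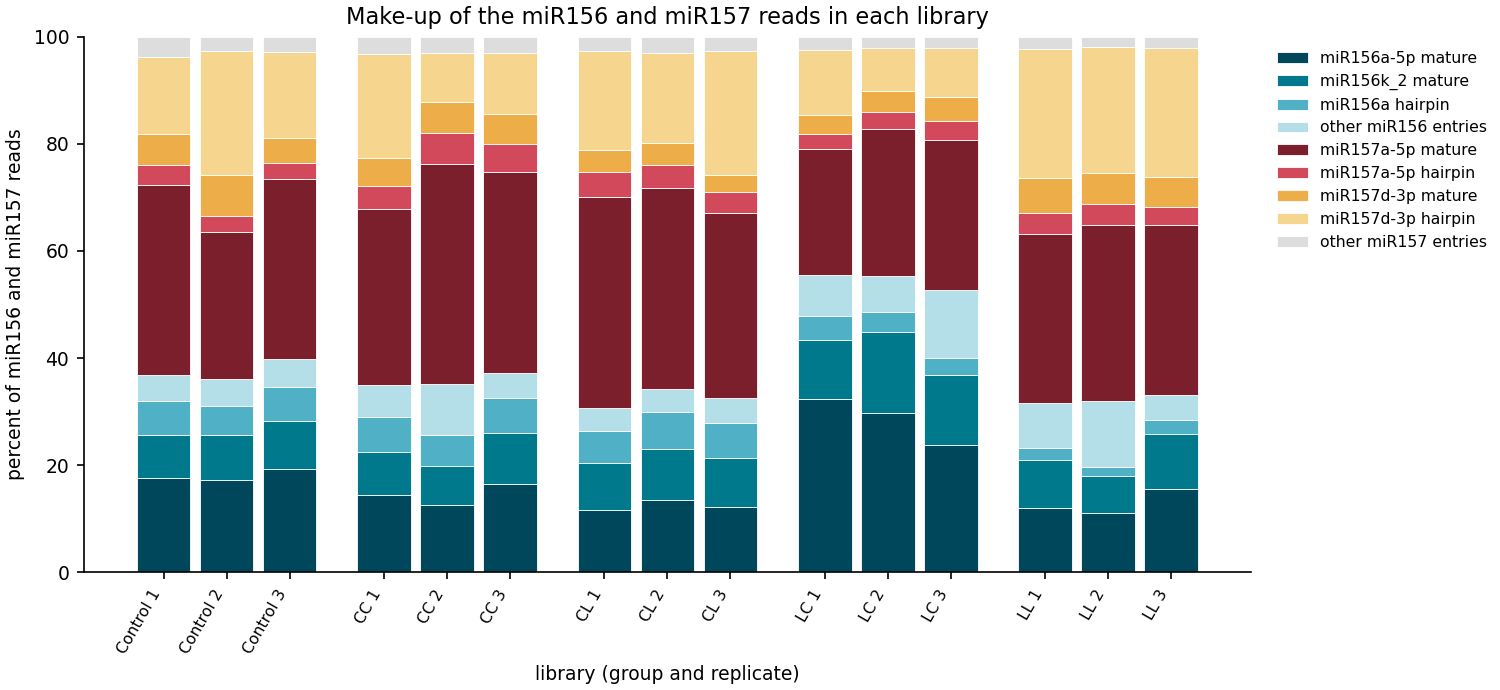
Share of each entry in the miR156 and miR157 reads of a library, in percent, stacked to 100 for each of the 15 libraries by group and replicate. Blue segments are miR156 names and red, orange and grey segments miR157 names; the blue part lies between 52.7% and 55.5% in the 3 LC libraries and below 40% in the 12 others.

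The miR156 sum was high in cool leaves under full light and low in cool leaves under 40% light. It stood at 9091, 14204 and 11476 CPM in the LC libraries and at 2171, 2343 and 3106 CPM in the LL libraries. The warm leaves lay between these, at 3052, 3992 and 4826 CPM in CC and at 3477, 4383 and 4468 CPM in CL. The Control libraries held 4328, 4611 and 6731 CPM. Every LC library was above all 12 others, and LL did not overlap with any group but CC, whose lowest library was just under the highest LL library. The group means were 11590 ± 2558 CPM in LC, 5223 ± 1313 in Control, 4109 ± 549 in CL, 3957 ± 887 in CC and 2540 ± 498 in LL.

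Cooling was followed by opposite changes of miR156 at the 2 light levels. Under full light the miR156 sum rose 2.93-fold from warm to cool (log2 change 1.55, SE 0.25, adjusted p = 0.00019), in a comparison in which 52.9% of 34 families were called. Under 40% light it fell by 0.69 on the log2 scale (SE 0.24, adjusted p = 0.0375), where 38.2% of families were called. The difference between the 2 changes was -2.24 (SE 0.35, adjusted p = 0.000272) and 29.4% of families had a called difference. Within the cool regime miR156 was 4.56-fold lower at 40% than at full light (log2 change -2.19, SE 0.25, adjusted p = 1.93e-05), with 47.1% of families called. In the warm regime the light levels gave a log2 change of 0.05 (SE 0.24, adjusted p = 0.91), and 32.4% of families were called there. Leaving out the first LC library gave 1.51 for the change under full light and -2.37 for the difference.

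The fall under 40% light kept its direction in every alternative run, at -1.13 to -0.53, and its call was lost in 4 of them. Without hairpin entries it was -0.53 (adjusted p = 0.172), with the most abundant entry alone -0.60 (adjusted p = 0.163), and with TMM factors taken from the family table -0.88 (adjusted p = 0.0562). novel_mir73 and miR398 took shares that moved with the groups. With both dropped and no TMM scaling the fall was -0.53 (adjusted p = 0.14), and every later value with both dropped is likewise without TMM scaling. The rise under full light was 1.12 (adjusted p = 0.00472) under that setting and was called under every alternative run.

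**Figure D2:**
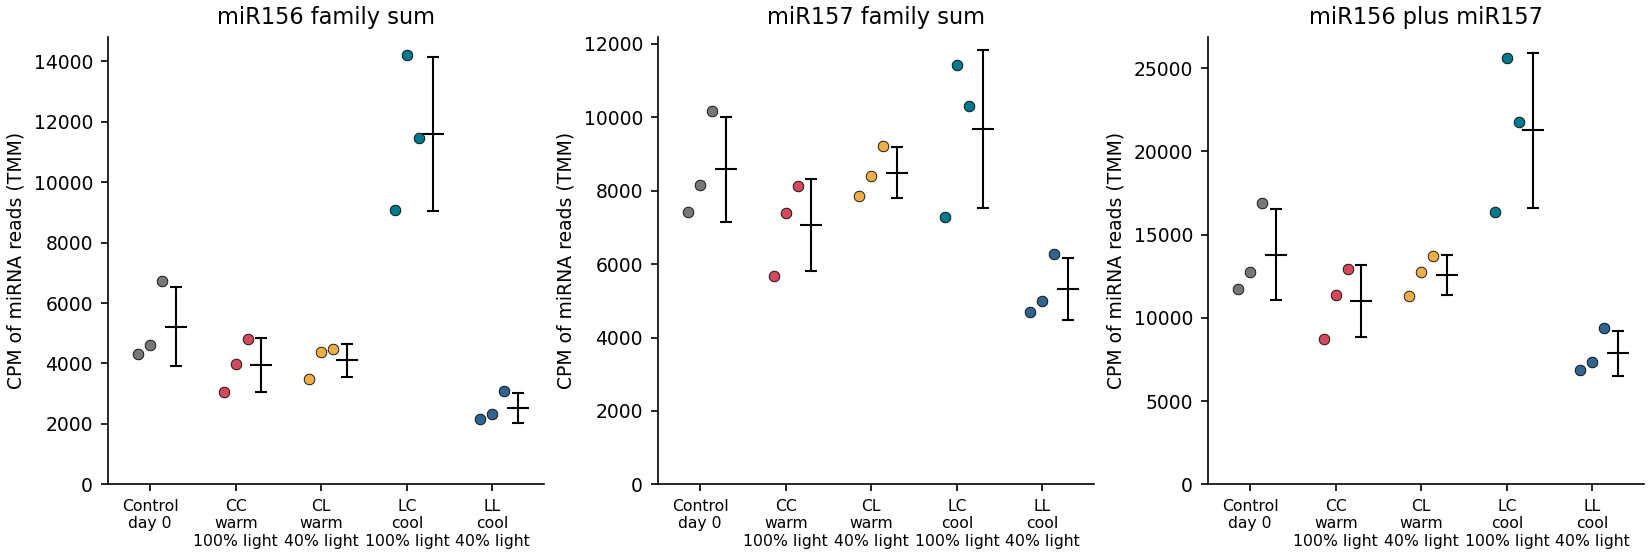
Level of the miR156 sum, the miR157 sum and both together, in CPM of microRNA reads after TMM scaling, for 5 groups. Points are the 3 libraries of a group and the bar is their mean ± SD; miR156 is highest in LC (mean 11590 CPM) and lowest in LL (mean 2540 CPM), and miR157 covers a narrower range (5330 to 9683 CPM).

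The miR157 sum moved less. Its libraries stood at 7291, 11437 and 10319 CPM in LC and at 5669, 7394 and 8119 CPM in CC, so these groups overlapped. They stood at 7845, 8401 and 9227 CPM in CL and at 4707, 4999 and 6285 CPM in LL, and these did not. The Control libraries held 7424, 8148 and 10171 CPM. From warm to cool, miR157 changed by 0.46 under full light (SE 0.21, adjusted p = 0.0858), which was not called, and fell by 0.67 under 40% light (SE 0.21, adjusted p = 0.0234). With novel_mir73 and miR398 dropped the fall was -0.51 and not called (adjusted p = 0.128). The difference between the 2 changes was -1.13 (SE 0.29, adjusted p = 0.0093). It was not called with TMM factors from the family table (-0.95, adjusted p = 0.107) or with novel_mir73 and miR398 dropped (-0.54, adjusted p = 0.315). Within the cool regime miR157 was lower at 40% light by a log2 change of -0.86 (SE 0.21, adjusted p = 0.00361), a call lost under the same 2 settings at -0.53 and -0.46. In the warm regime the light levels gave 0.27 (SE 0.21, adjusted p = 0.40).

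Since miR157 names here pool names that other species call miR156, both were also summed. The summed level was 21273 ± 4651 CPM in LC, 13804 ± 2729 in Control, 12600 ± 1197 in CL, 11017 ± 2136 in CC and 7870 ± 1337 in LL. It rose from CC to LC by 0.95 (SE 0.22, adjusted p = 0.00344; 54.5% of 33 families called) and fell from CL to LL by 0.68 (SE 0.22, adjusted p = 0.0291; 36.4% called). The difference was -1.63 (SE 0.31, adjusted p = 0.00121; 24.2% called) and stayed called under every alternative run. The rise and the fall were not called with novel_mir73 and miR398 dropped, at 0.52 (adjusted p = 0.129) and -0.52 (adjusted p = 0.12).

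A ratio within a library does not depend on how libraries are scaled, and the ratio of miR156 to miR157 reads set LC apart. Its log2 value was 0.32, 0.31 and 0.15 in the LC libraries. In the other 12 libraries it ran from -1.17 to -0.60, with group means of -0.73 in Control, -0.84 in CC, -1.05 in CL and -1.08 in LL. The 5 groups differed in an exact permutation test of the F statistic (p = 6.42e-05, adjusted over 3 tests 0.000193). Between 40% and 100% light the mean difference was -0.77 (exact stratified permutation test, two-sided, p = 0.005, the smallest that its 400 arrangements can give, adjusted 0.0075). It was -1.34 in the cool regime and -0.21 in the warm one. Between cool and warm the mean difference was 0.54 (exact p = 0.06, adjusted 0.06), made of 1.11 under full light and -0.02 under 40% light. This ratio was added after the data were seen, and its light effect had an adjusted p of 0.05 with mature entries only.

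**Figure D3:**
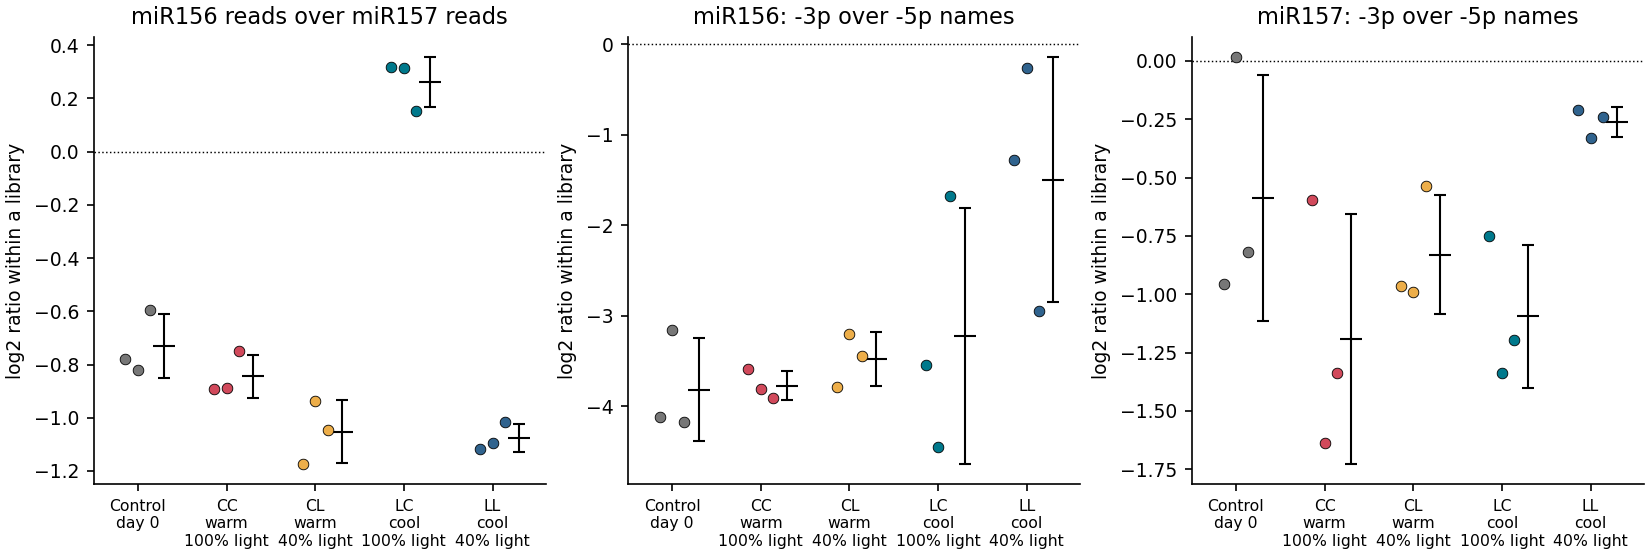
Log2 ratios within each library for 5 groups, with points for the 3 libraries of a group, a bar for their mean ± SD and a dotted line at equal reads. Left, miR156 over miR157 reads, above 0 in the 3 LC libraries and between -1.17 and -0.60 in the others; middle and right, reads of -3p over -5p names for miR156 and for miR157.

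The guide-strand entries were the most abundant. The miR156a-5p mature entry, the largest of miR156, stood at 5289, 7606 and 5196 CPM in LC and at 1257, 1431 and 2128 CPM in CC. It stood at 1312, 1714 and 1676 CPM in CL, at 830.3, 811 and 1467 CPM in LL and at 2064, 2194 and 3261 CPM in Control. All LC libraries were above all others, and LL overlapped with both warm groups. It rose from CC to LC by 1.91 (SE 0.31, adjusted p = 0.000577), while the change from CL to LL was -0.60 (SE 0.30, adjusted p = 0.188). The difference between them was -2.51 (SE 0.44, adjusted p = 0.00107). The far less abundant miR156a-5p hairpin entry, at 37.2 CPM in LL and 206 CPM in LC, rose by 1.57 and fell by 1.11 in the same 2 comparisons.

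The miR157a-5p mature entry, the most abundant of all, had 3843, 7034 and 6136 CPM in LC and 2861, 4686 and 4859 CPM in CC. It had 4466, 4797 and 4715 CPM in CL, 2177, 2419 and 2979 CPM in LL and 4165, 3504 and 5695 CPM in Control. The full-light groups overlapped, and LL lay below CL without overlap. From CC to LC it changed by 0.46 (SE 0.28, adjusted p = 0.234), and from CL to LL it fell by 0.88 (SE 0.28, adjusted p = 0.0396). The difference was -1.34 (SE 0.39, adjusted p = 0.024). With novel_mir73 and miR398 dropped the fall was -0.74 (adjusted p = 0.152) and the difference -0.77 (adjusted p = 0.256), and the fall was also not called with no low-count filter (adjusted p = 0.0593) or without the first LL library (adjusted p = 0.0528). Its hairpin entry, at 662 ± 171 CPM in LC and 287 ± 25.8 CPM in LL, gave 0.22 and -0.87, and only the second was called (adjusted p = 0.568 and 0.0274), a call lost at -0.72 (adjusted p = 0.146) with novel_mir73 and miR398 dropped.

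**Figure D4:**
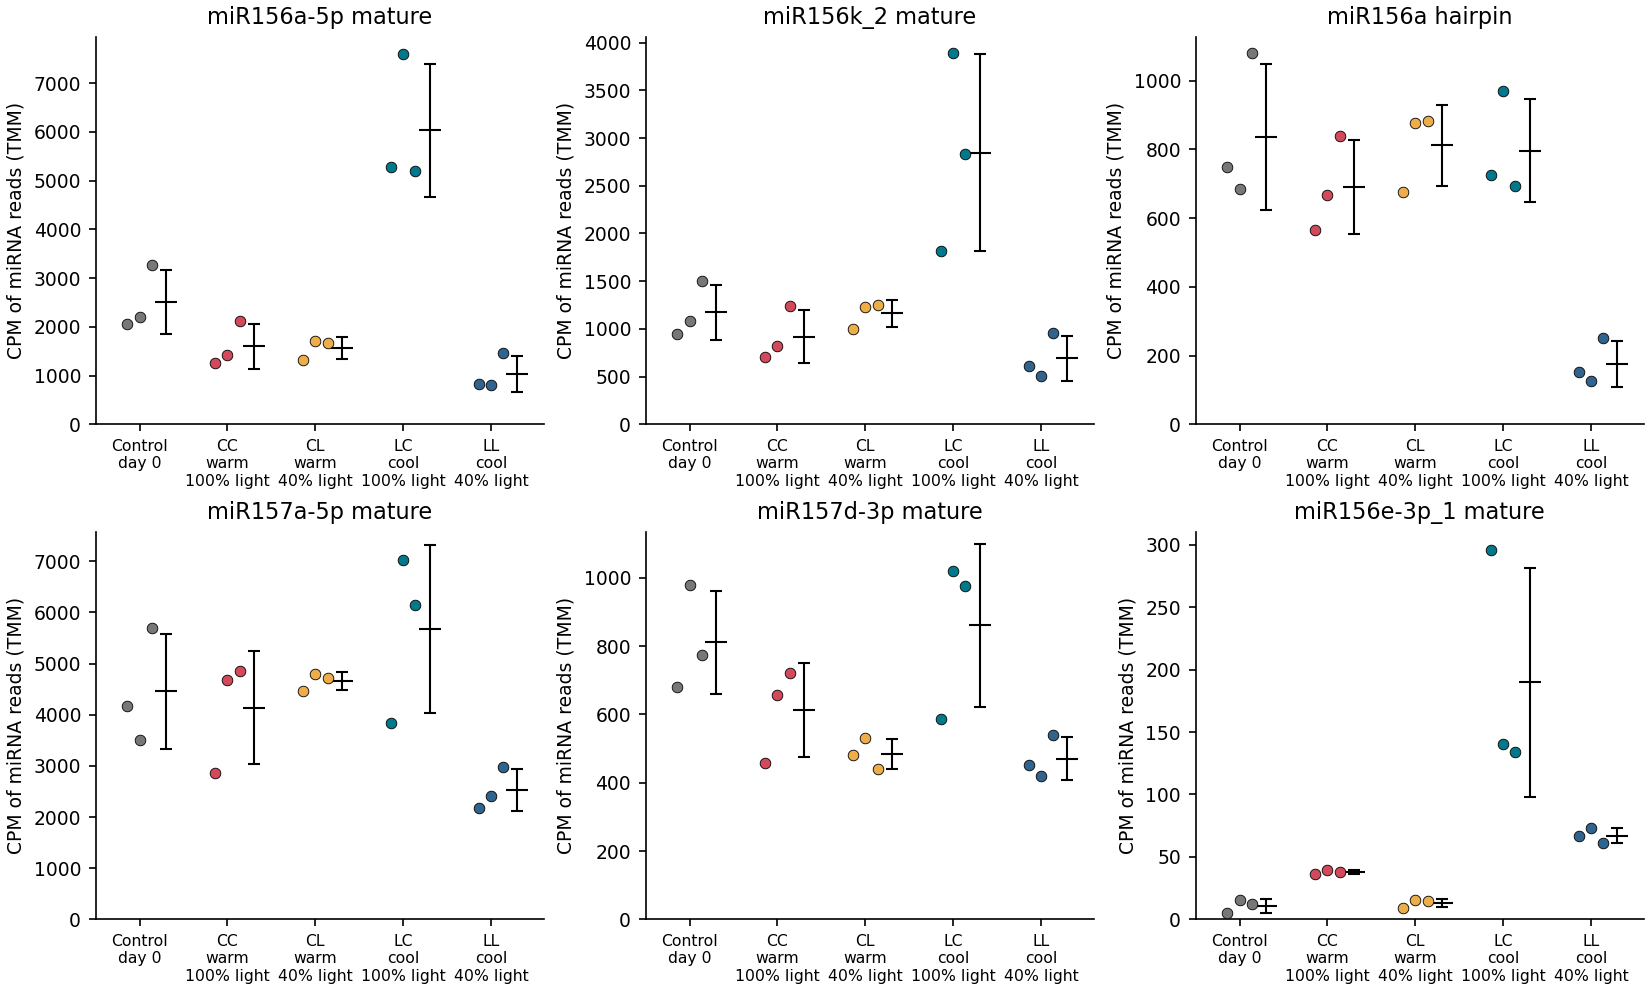
Level of 6 entries in CPM of microRNA reads after TMM scaling, for 5 groups, each on its own axis from 0, with points for the 3 libraries and a bar for mean ± SD. miR156a-5p and miR156k_2 mature stand out in LC, the miR156a hairpin entry is low in LL (mean 176 CPM), and miR156e-3p_1 mature is highest in LC (mean 190 CPM) and next in LL (mean 67 CPM).

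Among the entries whose names carry no arm, some had a called rise from CC to LC, some a called fall from CL to LL and some both. The miR156k_2 mature entry stood at 1817, 3890 and 2838 CPM in LC and at 703.7, 819.8 and 1236 CPM in CC. It stood at 998.5, 1232 and 1255 CPM in CL, at 610.1, 509.5 and 952.7 CPM in LL and at 947.6, 1083 and 1499 CPM in Control. LC was again above all other libraries. The rise from CC to LC was 1.63 (SE 0.34, adjusted p = 0.00284), and the change from CL to LL was -0.75 (SE 0.34, adjusted p = 0.138), a difference of -2.38 (SE 0.48, adjusted p = 0.00295).

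The miR156a hairpin entry did not share the rise in LC. It held 726.6, 968.6 and 693.9 CPM in LC, 566.2, 666.3 and 837.4 CPM in CC and 674.8, 877.6 and 882.7 CPM in CL. In LL it held 151.4, 125.4 and 251.7 CPM, and in Control 748.7, 683.4 and 1079 CPM. The 3 LL libraries lay below the 12 others, which overlapped with each other. The entry fell by 2.20 from CL to LL (SE 0.30, adjusted p = 0.000519) and changed by 0.21 from CC to LC (SE 0.29, adjusted p = 0.644). The mature entry of the same name, at 17.9 ± 5.31 CPM in LL and 80.5 ± 16.7 CPM in LC, both rose in LC (1.25, adjusted p = 0.00413) and fell in LL (-1.38, adjusted p = 0.00462). The sources used here do not say how the authors divided reads between a mature and a hairpin entry.

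The miR157d mature entry had 291.2, 336.6 and 263.7 CPM in LC and 180.1, 280.1 and 327.9 CPM in CC. It had 258.6, 276.6 and 301.6 CPM in CL, 131.7, 126.3 and 168.7 CPM in LL and 314.2, 237 and 402.2 CPM in Control. Only LL stood apart, below the other 12 libraries. The entry fell by 0.97 from CL to LL (SE 0.26, adjusted p = 0.0202) and changed by 0.18 from CC to LC (SE 0.26, adjusted p = 0.644), and the fall was -0.81 (adjusted p = 0.0614) with novel_mir73 and miR398 dropped. The difference between the 2 changes was -1.15 (adjusted p = 0.0343) and was not called under that setting (-0.54, adjusted p = 0.362), with no low-count filter (adjusted p = 0.0652) or without the first or the second LL library (adjusted p = 0.0639 and 0.0591). The miR156k_2 hairpin entry was uneven within CC, at 194.8, 599.3 and 52.1 CPM, against 29.3, 62.1 and 44.9 CPM in CL. Its called fall from CC to CL of 2.63 (adjusted p = 0.0292) became -1.40 (adjusted p = 0.157) without the second CC library. The same hairpin entry stood at 240.7, 205.8 and 481.3 CPM in LC and at 27.4, 31.7 and 28.8 CPM in LL. That log2 change of -3.40 (SE 0.72, adjusted p = 0.00239) was called under every alternative run.

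Of the remaining tested entries with no arm in the name, 4 had lower levels and at least 1 called change between warm and cool. The miR156c_1 hairpin entry had 136.3, 302.3 and 154.7 CPM in LC, 40.2 to 69.6 CPM in the warm libraries and 21.8, 21.4 and 33.2 CPM in LL, and it rose by 1.92 from CC to LC (adjusted p = 0.0011), while its change from CL to LL was -0.88 and not called (adjusted p = 0.0859). The miR157d hairpin entry ranged from 129.4 to 192.1 CPM in LC and from 19.3 to 33.2 CPM in LL, with a rise of 1.14 in LC and a fall of 1.55 in LL (adjusted p = 0.036 and 0.0135). The miR156_2 hairpin entry rose by 0.94 and fell by 1.29 in these comparisons (adjusted p = 0.036 and 0.0135), and its mature entry, at 16.3 to 60.9 CPM, fell by 1.33 in LL (adjusted p = 0.0232) and changed by 0.64 in LC (adjusted p = 0.199). The hairpin entries of miR156c, miR156f and miR156k ran from near 0 to far higher levels within some groups, and none of their tests was called in edgeR as reported. The miR156k hairpin entry held 0, 0 and 0.70 CPM in LC and 39.3, 39.5 and 55.4 CPM in LL, without overlap (log2 change 7.36, SE 3.11, adjusted p = 0.0747). It was the 1 tested entry with a positive change from LC to LL. DESeq2, and edgeR with only the groups compared, each called 1 entry higher in LL than in LC, and the shares of all entries called there are not given here.

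Entries named for the passenger strand differed among themselves from warm to cool. From LC to LL all 6 tested -3p entries had a negative change, and 2 were called lower, where 15.5% of all entries were. The miR157d-3p hairpin entry, the most abundant -3p entry, held 1975, 2072 and 2025 CPM in LC and 1686, 1059 and 1467 CPM in CC. It held 2074, 2149 and 3180 CPM in CL, 1660, 1728 and 2249 CPM in LL and 1698, 2947 and 2731 CPM in Control. LC lay above CC without overlap, and LL overlapped with CL. Neither cool-against-warm change was called, with 0.53 under full light (SE 0.26, adjusted p = 0.139) and -0.39 under 40% light (SE 0.26, adjusted p = 0.313). The miR157d-3p mature entry had 586, 1020 and 977.3 CPM in LC and 450.6, 420.7 and 541 CPM in LL. Within the cool regime it was lower at 40% light by a log2 change of -0.87 (SE 0.25, adjusted p = 0.0154), which became -0.47 (adjusted p = 0.264) with novel_mir73 and miR398 dropped. The cool-against-warm changes of this mature entry were 0.49 under full light and -0.04 under 40% light (adjusted p = 0.152 and 0.938), and neither was called.

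The miR156f-3p_1 entries were uneven in the cool groups. The hairpin entry stood at 89.5, 115.9 and 957.9 CPM in LC, at 155.6, 351.6 and 84.2 CPM in LL and at 33.3, 33.7 and 47.4 CPM in CC. It stood at 42.5, 112.4 and 80.1 CPM in CL and at 73.5, 114.3 and 91.1 CPM in Control. The third LC library was far above the other 2, and the mature entry had 49.2, 92.2 and 566.3 CPM in the same libraries. The called rises from CC to LC, 3.34 for the hairpin entry (adjusted p = 0.0106) and 2.70 for the mature entry (adjusted p = 0.033), became 1.36 (adjusted p = 0.0724) and 0.90 (adjusted p = 0.345) without that library. The mature entry was also not called without any 1 of the CC libraries (adjusted p from 0.067 to 0.117) or with novel_mir73 and miR398 dropped (2.37, adjusted p = 0.0691), and the hairpin entry not without the second CC library (adjusted p = 0.0502).

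The miR156e-3p_1 entries, named here after their values were seen, were the ones that rose from warm to cool at both light levels. The mature entry stood at 295.8, 140.2 and 133.6 CPM in LC and at 36.4, 39.2 and 37.7 CPM in CC. It stood at 67.1, 72.8 and 61.2 CPM in LL, at 9.40, 15.4 and 15.0 CPM in CL and at 5.01, 15.8 and 11.9 CPM in Control. In both pairs the cool libraries were above the warm ones. It rose by 2.33 from CC to LC (SE 0.43, adjusted p = 0.00115) and by 2.33 from CL to LL (SE 0.43, adjusted p = 0.00264). The difference between the 2 changes was 0.00 (adjusted p = 0.996), and without the first LC library the first rise was 1.66 (adjusted p = 0.00654). It was lower at 40% than at full light in the cool regime (-1.50, SE 0.41, adjusted p = 0.012) and in the warm one (-1.51, SE 0.42, adjusted p = 0.0334). With novel_mir73 and miR398 dropped the cool value was -0.99 and not called (adjusted p = 0.0594). The warm call was lost with any 1 of its 6 libraries left out, at -1.59 to -1.19 (adjusted p from 0.0599 to 0.159). The hairpin entry, at 22.4 ± 10.4 CPM in LC and 12.4 ± 2.87 CPM in LL, rose by 1.32 and 1.22 from warm to cool (adjusted p = 0.0232 and 0.0477).

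**Figure D5:**
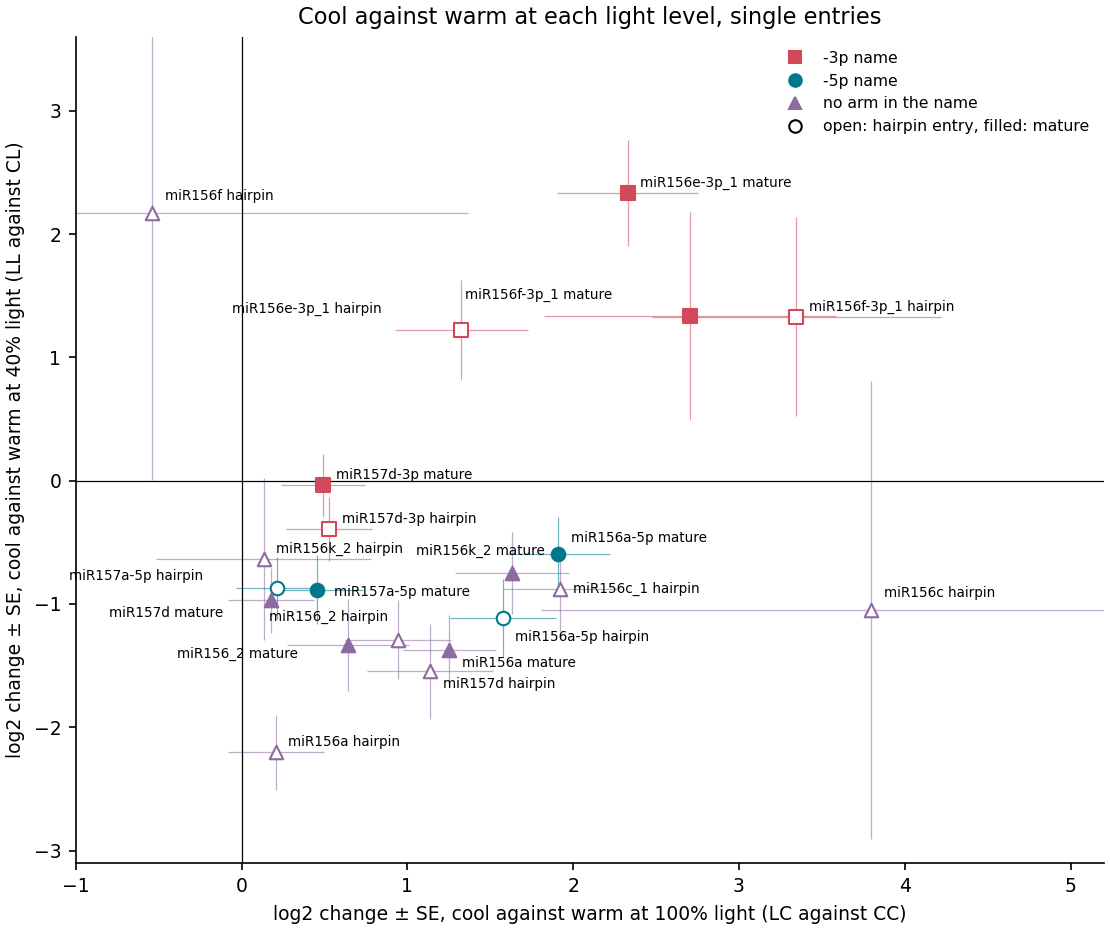
Log2 change from warm to cool of 21 of the 22 tested entries, under 100% light (horizontal axis) and under 40% light (vertical axis), each with its SE; the miR156k hairpin entry, at -7.61 and -0.17, lies outside the axes, and the bars of miR156c and miR156f hairpin run past them. Entries at the lower right have a positive change under full light and a negative one under 40% light, and the 4 miR156 entries with -3p names are the points with positive values on both axes.

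Counted over the tested entries, the 2 light levels differed in direction. From CC to LC 11 of the 22 tested entries rose, among them 10 of 16 called miR156 and 1 of 6 called miR157, while 35.3% of all 283 entries were called, 16.6% higher and 18.7% lower. From CL to LL 9 of the 22 fell and 2 rose, while 24.0% of all entries were called, 16.6% higher and 7.42% lower. The median change of the tested miR156 and miR157 entries was 1.04 and -0.81 in these comparisons, beside 0.21 and 0.29 for all entries. Within the cool regime 15 of the 22 were lower at 40% light, where 15.5% of all entries were lower and 28.6% higher. A difference between the light levels was called for 12 of the 22, each with a lower value at 40% light, where 8.13% of all entries were called lower and 19.8% higher. These 12 were the 4 tested -5p entries and 8 of the 12 with no arm in the name. In the warm regime 2 of the 22 were lower at 40% light, where 6.71% of all entries were lower; they were miR156e-3p_1 mature and miR156k_2 hairpin. The tested entries had passed a filter on low counts, so these counts describe them and are no test of the 30 entries.

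Summed by family and arm name, the -5p and the -3p names of miR156 both rose in LC, and the -5p names of miR157 fell in LL. These sums add mature and hairpin entries and are sums over names, not over strands. They leave out entries with no arm in the name, and some of those, such as miR157d, pool published names that end in -5p. The miR156 -5p sum was 6237 ± 1415 CPM in LC and 1675 ± 472 CPM in CC, a rise of 1.90 (SE 0.31, adjusted p = 0.000316), and its -3p sum was 836 ± 732 and 121 ± 22.2 CPM, a rise of 2.79 (SE 0.61, adjusted p = 0.00367), where 51.6% of 62 such sums were called. The -3p sum stood at 468, 361 and 1679 CPM in the LC libraries, and without the third of them its rise was 1.71 (adjusted p = 0.0155). The miR157 -5p sum was 2812 ± 437 CPM in LL and 5185 ± 183 CPM in CL and fell by 0.88 (SE 0.27, adjusted p = 0.031), where 25.8% were called. With novel_mir73 and miR398 dropped that fall was -0.74 and not called (adjusted p = 0.108). The miR156 -3p sum, at 417 ± 253 CPM in LL and 152 ± 48.4 CPM in CL, changed by 1.45 (SE 0.59, adjusted p = 0.0923). The cool-against-warm changes at the 2 light levels differed by -2.52 for the miR156 -5p names and by -1.34 for its -3p names (adjusted p = 0.000693 and 0.253), where 27.4% of sums had a called difference.

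The balance of -3p and -5p names within a library was compared over the groups for each family and for both together. For miR157 the log2 ratio of -3p to -5p reads was -0.21, -0.33 and -0.24 in LL and -0.96, -0.99 and -0.54 in CL. It was -0.75, -1.34 and -1.20 in LC, -0.60, -1.64 and -1.34 in CC and -0.95, 0.02 and -0.82 in Control. The LL values were close together and above all other regimes, and 1 Control library was higher still. The mean difference between 40% and 100% light was 0.60 (exact stratified permutation test, two-sided, p = 0.02, adjusted over 9 tests 0.06), and with mature entries only it was -0.12. For miR156 the ratio was -1.28, -0.27 and -2.95 in LL and -3.55, -4.45 and -1.68 in LC, with group means from -3.82 to -3.48 elsewhere. None of the 9 tests of arm balance passed after adjustment (adjusted p from 0.06 to 0.345), and 4 had an exact p under 0.05 before it. These were the light effect for miR157, the 5-group test for miR156 (exact p = 0.042), and the 5-group test and the light effect for both together (exact p = 0.0186 and 0.015).

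Each regime was also set against the day 0 leaves, 4 comparisons that share the Control libraries. The miR156 sum changed by -0.40 in CC (SE 0.24, adjusted p = 0.264) and by -0.35 in CL (SE 0.24, adjusted p = 0.29), rose by 1.15 in LC (SE 0.25, adjusted p = 0.00263) and fell by 1.04 in LL (SE 0.25, adjusted p = 0.00695). Of the 34 families 35.3%, 38.2%, 41.2% and 41.2% were called in these comparisons. The miR157 sum changed by -0.28 in CC, -0.02 in CL and 0.17 in LC (adjusted p = 0.357, 0.979 and 0.489) and fell by 0.69 in LL (SE 0.21, adjusted p = 0.0204). With novel_mir73 and miR398 dropped, the LC value of miR156 was 0.66 (adjusted p = 0.0752), and with TMM factors from the family table the LL values were -0.87 for miR156 (adjusted p = 0.0636) and -0.49 for miR157 (adjusted p = 0.226). Without the third Control library the LL value of miR157 was -0.54 (adjusted p = 0.107).

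Of the 22 tested entries, 3 were higher in CC than in Control, where 6.36% of all entries were higher, and 6 were higher in LC, where 8.83% were. The 3 in CC were miR156e-3p_1 mature and hairpin and miR156k_2 hairpin. The last, at 2.15 (adjusted p = 0.0473), became 1.17 (adjusted p = 0.204) without the second CC library. In LL 8 were lower and 2 higher, where 4.95% and 6.01% of all entries were. In CL edgeR called 0 of the 22, where 7.07% of all entries were higher and 16.6% lower. At an unadjusted p under 0.05 in edgeR there were 1 higher and 2 lower, and DESeq2 called 1. The shares of all entries under those other rules are not given here, so these last counts only describe the 22 entries. The miR156e-3p_1 mature entry had the largest called change of any of the 22 against day 0, rising by 4.11 in LC (SE 0.46, adjusted p = 3.39e-05) and by 2.61 in LL (SE 0.43, adjusted p = 0.00466). It also rose by 1.78 in CC (SE 0.42, adjusted p = 0.0121) and changed by 0.28 in CL (SE 0.41, adjusted p = 0.742).

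miR172, which in Arabidopsis lies downstream of the SPL factors and silences AP2-type repressors of the adult phase and of flowering, was followed as the other end of the pathway. It had 30 entries, of which 7 were tested, and its summed level was low, at 133 ± 45.3 CPM in LC, 118 ± 38.0 in LL, 92.7 ± 12.7 in CC, 90.8 ± 15.5 in CL and 76.0 ± 16.6 in Control. The sum changed by 0.52 from CC to LC (SE 0.35, adjusted p = 0.227) and by 0.38 from CL to LL (SE 0.35, adjusted p = 0.399), and neither was called. Between LL and LC, where miR156 was lower in LL, the miR172 sum gave -0.17 (SE 0.35, adjusted p = 0.702). Of the 7 tested entries 1 was called higher in LL and 1 lower, where 28.6% of all entries were higher and 15.5% lower. There were 2 positive and 5 negative changes. The miR172a_3 mature entry stood at 25.1, 34.0 and 40.4 CPM in LC and at 106, 93.4 and 51.4 CPM in LL. It was higher at 40% light in the cool regime by a log2 change of 1.33 (SE 0.31, adjusted p = 0.00472). The miR172b-5p_4 mature entry, a -5p name and so a passenger strand in miR172, stood at 11.9, 35.6 and 40.4 CPM in LC. It stood at 0 to 0.85 CPM in the 12 other libraries. Its log2 change was 5.41 from CC to LC (SE 0.88), and it was the entry called lower in LL than in LC (-5.38, SE 0.89). This entry passed the low-count filter only through LC, where it is high, so these changes describe it and are no test. The entries of the table named miR529 or miR535, relatives of miR156 in other plants, numbered 0.

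The mature and predicted entries whose log2 levels followed the miR156 sum most closely over the 15 libraries were, of 170 compared, novel_mir1 (r = 0.832), miR171b_2 (r = 0.799), novel_mir54 (r = 0.788), miR172b-5p_4 (r = 0.759) and miR168a-5p (r = 0.756). The median r of the 170 was -0.162. The libraries of a group and their scaling are shared by all these values, and miR172b-5p_4 was near the floor outside LC, so they are given as a description. miR168, which silences the ARGONAUTE that carries most plant microRNAs, averaged 25433 CPM in LC and 5664 to 12809 CPM in the other groups.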

How the data were processed

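Small RNA from 15 leaf libraries was analysed, with groups as the sample labels give them (3 libraries in each of 5). The deposited counts are whole reads per small-RNA entry for each library, per the file headers. The TPM values that the authors deposited beside them are reads scaled to the library total without a length term; no test used them. The sources used here do not name the trimming, alignment or reference databases, nor how multiply matching reads were counted. Per the labels' protocols, libraries were PCR-amplified and size-selected by PAGE, so counts include PCR copies.

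Mature, hairpin and predicted entries were scaled by TMM (factors 0.704 to 1.41), filtered by filterByExpr and fitted in edgeR 4.0.16 (R 4.3.3, quasi-likelihood, 1 mean per group). P-values were adjusted by Benjamini-Hochberg over all 283 entries tested, or over 34 family sums (33 with miR156 and miR157 as 1, and 62 sums by family and arm). Family and arm sums used the library sizes of the single entries. The biological coefficient of variation was 0.711 for entries and 0.458 for families. Ratios within a library (0.5 reads added) were compared by exact permutation, two-sided, with regimes permuted within the other factor. Scripts were tested on simulated data.

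The 3 most abundant tested entries with -5p, with -3p and with no arm in the name were chosen for full description. Of these, miR157a-5p hairpin and miR157d-3p mature are given more briefly. Others named were chosen after their values were seen. The members, lists and tests were chosen with earlier results of these data known. Alternatives were DESeq2 1.42.0, other scalings and filters, hairpin or predicted entries left out, the most abundant entry for a family, only the groups compared, a replicate block and each library left out. Figures were drawn with matplotlib 3.10.9 in Python 3.11.15.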

Additional observations from a re-analysis of the deposited data

Results flagged for a closer look

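The change from warm to cool differed between the light levels, by the interaction term in edgeR (quasi-likelihood, Benjamini-Hochberg adjustment), for the sums and entries below. Each value is the log2 change at 40% light minus that at 100% light. For the sums it was -2.24 for miR156 (adjusted p = 0.000272), -1.13 for miR157 (adjusted p = 0.0093) and -1.63 for both together (adjusted p = 0.00121). By arm it was -2.52 for the -5p names of miR156, -2.20 for its names with no arm, -1.31 for the -5p names of miR157 and -1.53 for its names with no arm. For single entries it was -2.51 for miR156a-5p mature, -2.41 for miR156a hairpin, -2.38 for miR156k_2 mature, -1.34 for miR157a-5p mature, -1.15 for miR157d mature and -1.09 for miR157a-5p hairpin. The -3p names gave -1.34 for miR156 (adjusted p = 0.253) and -0.85 for miR157 (adjusted p = 0.066), which were not called. A further setting dropped novel_mir73 and miR398, whose shares moved with the groups, and used no TMM scaling. It moved the differences of all entries by a median of 0.62, and the cause of the changes below was not tested. With both dropped, the differences of the miR157 sum and of its arms and entries given above as called were not called, at -0.54 for the sum, -0.74 for the -5p names (adjusted p = 0.258), -0.93 for the names with no arm (adjusted p = 0.0663), -0.77 for miR157a-5p mature (adjusted p = 0.256), -0.54 for miR157d mature (adjusted p = 0.362) and -0.51 for miR157a-5p hairpin (adjusted p = 0.456). Those of the miR156 sum, arms and entries stayed called at -1.93 to -1.62. The miR157d mature and miR157a-5p hairpin differences were also not called with no low-count filter (adjusted p = 0.0652 and 0.0705) or without the first LL library (adjusted p = 0.0639 for each), nor was the first without the second LL library or the second without the second LC library (adjusted p = 0.0591 and 0.0587).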

How the results depend on the processing

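Alternatives kept the side of the threshold and the direction of the miR156 rise from CC to LC (1.12 to 1.91), of its difference between light levels (-2.70 to -1.65), of its light effect in the cool regime (-2.68 to -1.78) and of the difference for both families together (-2.27 to -1.04). Changes of scaling moved the log2 changes of all entries by a median of over 0.1 in many comparisons. This median move was -0.46 to 0.29 for LC against CC and -0.40 to 0.62 for the difference between light levels. With novel_mir73 and miR398 dropped and no TMM scaling, it was -0.46 for LC against CC, where the miR156 rise was 1.12.

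With novel_mir73 and miR398 dropped, an alternative added after the data were seen, miR156 gave -0.134 (CL against CC), 0.658 (LC against Control) and -0.531 (LL against CL), miR157 gave -0.309 (LC against Control), -0.513 (LL against CL), -0.457 (LL against LC) and -0.540 (the difference), and the sum gave 0.519 (LC against CC), 0.136 (LC against Control) and -0.519 (LL against CL), none of them called. With TMM on the family table miR156 gave 0.00775 (CL against Control), -0.877 (LL against CL) and -0.869 (LL against Control), miR157 gave 0.348 (CL against Control), -0.494 (LL against Control), -0.528 (LL against LC) and -0.950 (the difference), and the sum gave 0.806 (CL against CC, called), 0.264 (CL against Control) and 0.356 (LC against Control). Without hairpin entries miR156 gave -0.123 (CL against CC) and -0.525 (LL against CL), miR157 gave 0.0702 (CC against Control) and -0.118 (CL against CC), and the sum gave -0.119 (CL against CC) and -0.674 (LL against CL). With mature entries only, the miR157 arm balance gave -0.115 for light, and the miR156 to miR157 ratio gave -0.591 for light and 0.808 for temperature, the last called. With the most abundant entry miR156 gave -0.0347 (CL against CC) and -0.597 (LL against CL), miR157 gave 0.0648 (CL against Control), the sum gave 0.0648 (CL against Control), 0.456 (LC against CC) and 0.348 (LC against Control), and the ratio gave 0.863 for temperature (called). With library size only, miR157 gave 0.248 (CL against Control) and -0.843 (LL against Control) and the sum gave 0.126 (CL against Control) and 0.775 (LC against Control). With library sizes taken from all reads of the table, miR156 gave -0.0497 (CL against CC) and miR157 gave 0.766 (LC against CC, called). With only the groups compared, miR157 gave 0.0555 (CL against Control) and -0.615 (LL against Control) and the sum gave 0.758 (LC against Control). Without predicted microRNAs miR157 gave 0.150 and the sum 0.0323 for CL against Control, where miR157 gave 0.111 with DESeq2 and 0.111 with relative-log-expression factors. The cause of these changes was not tested.

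Replicate numbers did not pair the samples: deviations of same-numbered libraries correlated at a median of -0.00724 over 30 pairs (-0.269 to 0.363) and those of other pairs at -0.0158. With the replicate block miR157 rose from CC to LC by 0.455 (adjusted p = 0.0242), and no other call of a family sum changed. Of the 22 entries 9 rose in that comparison, against 11 without the block. The share of all entries called with the block is not given here.

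With 1 library left out and the scaling recomputed, miR156 ranged from -0.417 to 0.0605 (CC against Control), -0.110 to 0.293 (CL against CC) and -0.242 to 0.172 (CL against Control). miR157 ranged from -0.242 to 0.0939 (CC against Control), 0.118 to 0.418 (CL against Control) and -0.849 to -0.538 (LL against Control, not called without the third Control library). The sum ranged from -0.306 to 0.0818 (CC against Control), -0.00988 to 0.333 (CL against Control), 0.617 to 0.960 (LC against Control, not called without Control replicate 1 or 2 or LC replicate 2 or 3) and -0.985 to -0.630 (LL against Control, not called without the third Control library). The miR156 to miR157 ratio ranged from 0.511 to 0.570 for temperature. Arm balance ranged from 0.876 to 1.62 (miR156, temperature), 0.221 to 0.482 (miR157, temperature), 0.486 to 0.747 (miR157, light) and 0.731 to 0.972 (both, light), and its adjusted p over 5 groups from 0.0342 to 0.217 (miR157) and 0.0225 to 0.197 (both); without the first CC library these passed, except miR156, which passed without the second LC library.

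Single calls were recomputed for the entries chosen for full description and for miR156e-3p_1 mature, miR156f-3p_1 mature and miR156k_2 hairpin. Arm sums were added, and only results called in edgeR as reported were followed, so gained calls are not counted. Among these, 57 recomputed calls were lost under other settings and 569 were not, 46 were lost with a library left out and 362 were not, and none changed direction. Entries higher from CC to LC numbered 6 with only the groups compared, 7 with predicted microRNAs left out or novel_mir73 and miR398 dropped, and 14 with all reads as library size, against 11 in edgeR as reported. Entries lower from CL to LL numbered 4 with novel_mir73 and miR398 dropped, against 9; those lower in LL than in Control numbered 12 with DESeq2 or all reads, against 8; and those higher in LC than in Control numbered 3 with novel_mir73 and miR398 dropped and 10 with DESeq2, against 6. Those lower in CL than in CC numbered 1 with no filter or only the groups compared and 0 with library size only or the block, against 2. The share of all entries called under each of these settings is not given here. Whether the counts moved with those of all entries was therefore not tested. Entries under the low-count filter limit what can be seen of 8 names, and 3 libraries a group limit small changes.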

Other observations

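The miR156k hairpin entry was read in 8 of the 15 libraries with 92 to 406 reads, in 1 library with 2 reads and in the other 6 with 0, and libraries of the same group fell on both sides in Control, CC and CL. A count of 0 allows up to 3 reads, counting error only. The miR156c hairpin entry had 740 reads in the second LC library and 0 to 39 in the 14 others. The general mir-156 precursor entry of the Rfam database, which lies outside the 30 entries, had 0 to 13 reads in a library.

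Set against the reads of the miR156a-5p guide strand, the miR156e-3p_1 mature entry was rare on day 0 and most frequent in cool leaves under 40% light. Per 100 reads of miR156a-5p it had 0.243, 0.719 and 0.366 reads in Control and 8.08, 8.98 and 4.17 in LL. It had 5.59, 1.84 and 2.57 in LC, 2.90, 2.74 and 1.77 in CC and 0.716, 0.900 and 0.892 in CL. These ratios were computed after the values were seen and are given with no test.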
